A study of Mus musculus with 6 samples.

Results

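The 7 genes described here, Klf15, Zbtb16, Tsc22d3, Fkbp5, Per1, Sgk1 and Nr3c1, are the glucocorticoid receptor gene and 6 genes that respond to it, out of 31055 features in a pooled single-cell matrix. They were chosen by symbol after differences of Klf15 and Zbtb16 between tumour cell states had been seen in these same cells, so their levels are descriptions and not independent evidence. Among the 4 gates set below, Klf15 and Zbtb16 were highest in surfactant-expressing cells and lowest in keratin-high cells, at 2.35 against 20.0 and 2.15 against 9.62 UMIs per 1000000. Fkbp5 and Sgk1, from the same hormone pathway, had their highest levels of the 4 gates in the keratin-high cells.

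Glucocorticoids enter a cell, bind the receptor encoded by Nr3c1 in a complex with Hsp90 chaperones, and the receptor then acts in the nucleus as a transcription factor at short palindromic DNA elements. In the lung the hormone is best known for maturing alveolar type II (ATII) cells and their surfactant before birth, and Klf15, Zbtb16, Tsc22d3, Fkbp5, Per1 and Sgk1 are widely used as its direct targets. Each of them also answers to other inputs, among them the circadian clock, growth factors, salt and osmotic stress.

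The cells came from lung tumours of 6 mice, all carrying Lkb1XTR/XTR and Rosa26LSL-tdTomato, in which Lenti-Cre delivered into the airway switched on the red reporter and trapped Lkb1 (symbol Stk11). The trap joins a green fluorescent protein (GFP) sequence to a truncated Lkb1 transcript, and FLPo-ERT2 recombinase deletes it when tamoxifen is given. The 3 mice labelled restored carried FLPo-ERT2 and received tamoxifen in 4 mg doses over 2 weeks, after 20 weeks of tumour growth. Of the 3 labelled non-restored, 1 received tamoxifen without FLPo-ERT2, 1 received vehicle without it and 1 received vehicle with it. Microdissected tumours were digested with enzymes at warm temperature, and cells bearing blood or endothelial surface markers and dead cells were sorted out. Restoration depends on the recombinase in each cell, and Cre reached whatever airway and alveolar cells the virus infected.

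No file used here names the mouse of a cell, so the matrix counts as 1 sample and carries no replicate error. Intervals given below are exact 95% intervals that cover counting error only, and no test was run. Of 16017 cells, 12183 had at least 500 genes and at most 20% mitochondrial UMIs. The unique molecular identifier (UMI) counts of these cells ranged from 671 to 125731, with a median of 19348.

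Gates were set on UMIs per 10000 in each cell. The ATII gate (Sftpc at least 500, Hopx under 2, Krt8 plus Krt18 under 50) held 6975 cells, of which 3429 had Lyz2 of at least 100 (Lyz2-high) and 3546 had less (Lyz2-low). An alveolar type I (ATI) gate (Hopx at least 15, the same keratin limit) held 956 cells, and the keratin-high gate (Krt8 plus Krt18 at least 50) held 1183. The other 3069 cells fell in no gate. Of the markers that define no gate, 10 of 12 ATII markers were highest in Lyz2-high cells and the other 2, Sftpb and Sftpd, in Lyz2-low cells, while 12 of 12 ATI markers and 10 of 10 transitional markers peaked in the ATI and keratin-high gates. Across the 4 gates the 8 endothelial markers summed to 7.89 to 19.5 UMIs per 1000000, the 8 fibroblast markers to 10.6 to 58.0, and the 10 immune markers to 7.49 to 107, with Cd3e and Nkg7 at 0. The 8 airway markers summed to 122 to 303, highest in the keratin-high gate. The 10 proliferating markers summed to 42.5 in Lyz2-high, 179 in Lyz2-low, 9.52 in ATI and 109 in keratin-high cells. The 10 transitional markers summed to 1257 in Lyz2-high and 2243 in Lyz2-low cells. The part of these classes in the gate differences was not tested. Endothelial Cldn5 and fibroblast Pdgfra were at 0 in the keratin-high gate, and fibroblast Lum was at 0 in the ATI gate.

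All 7 genes were annotated as protein coding in GENCODE M21 (GRCm38, the mm10 assembly). Klf15 lies on chromosome 6 (90462576 to 90475238, plus strand), Zbtb16 on chromosome 9 (48654297 to 48836222, minus strand) and Tsc22d3 on chromosome X (140539528 to 140600659, minus strand). Fkbp5 lies on chromosome 17 (28399094 to 28517527, minus strand), where AC154912.5 and AC154912.3 overlap it on the same strand, so reads in the shared stretches could be assigned either way. Per1 is on chromosome 11 (69095217 to 69109960, plus strand) and Sgk1 on chromosome 10 (21882184 to 21999903, plus strand). The other 6 genes overlap no annotated gene on the same strand.

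Sequences around transcription starts were taken from RefSeq (GRCm38.p6), from 250 bases before a start to 50 after it, and 5 of the 7 genes had such windows. The palindromic glucocorticoid response element was searched as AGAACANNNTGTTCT on both strands and occurred in 3 of 32851 windows of all genes, 0.00913%. One of the 3 was at Sgk1, at chr10:21993641-21993775 (plus strand), printed with the element in capitals because Sgk1 is one of the members whose level ran opposite to Klf15.
Sgk1: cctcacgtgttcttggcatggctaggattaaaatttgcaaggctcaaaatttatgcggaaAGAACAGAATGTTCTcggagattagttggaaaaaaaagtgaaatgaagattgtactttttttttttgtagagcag
The Klf15 window at chr6:90462326-90462578 (plus strand) held no match to that element. It held 3 copies of the E-box CACGTG, in capitals, the palindrome read by clock and other basic helix-loop-helix factors, which is its own reverse complement. At least 3 copies occurred in 29 of 32851 windows (0.0883%), against 7.15% of windows with any copy. That threshold equals the count of the Klf15 window itself. Sgk1, Per1 and Fkbp5 also had 1 copy each, that of Sgk1 inside the stretch printed above, where it was left in lower case.
Klf15: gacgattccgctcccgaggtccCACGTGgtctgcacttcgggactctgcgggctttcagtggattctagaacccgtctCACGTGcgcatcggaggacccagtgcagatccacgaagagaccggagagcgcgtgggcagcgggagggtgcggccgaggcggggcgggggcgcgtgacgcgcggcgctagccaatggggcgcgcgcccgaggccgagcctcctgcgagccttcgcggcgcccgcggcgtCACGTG
These matches describe letters in short windows and say nothing about which factors were bound in the tumour cells, since receptor elements commonly lie far from a start site.

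Klf15 encodes a Krüppel-like zinc finger transcription factor that governs amino acid and lipid catabolism. Its summed level was 23.2 UMIs per 1000000 (CPM; interval 22.2 to 24.2) in Lyz2-high ATII cells, 16.1 (15.2 to 17.0) in Lyz2-low ATII cells, 16.9 (14.8 to 19.3) in ATI cells and 2.35 (1.84 to 2.96) in keratin-high cells. The Lyz2-low and ATI intervals overlapped and the other steps did not. Keratin-high cells thus had 0.118 times (0.0918 to 0.149) the ATII level, from 72 against 3225 UMIs. Zbtb16, which encodes the BTB and zinc finger repressor PLZF, was also highest in Lyz2-high and lowest in keratin-high cells, with 10.8 CPM (10.1 to 11.5) in Lyz2-high, 8.21 (7.56 to 8.89) in Lyz2-low, 5.32 (4.16 to 6.71) in ATI and 2.15 (1.66 to 2.74) in keratin-high cells. No neighbouring pair of those 4 intervals overlapped, and the ATI level lay below the Lyz2-low level, unlike that of Klf15.

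**Figure D1:**
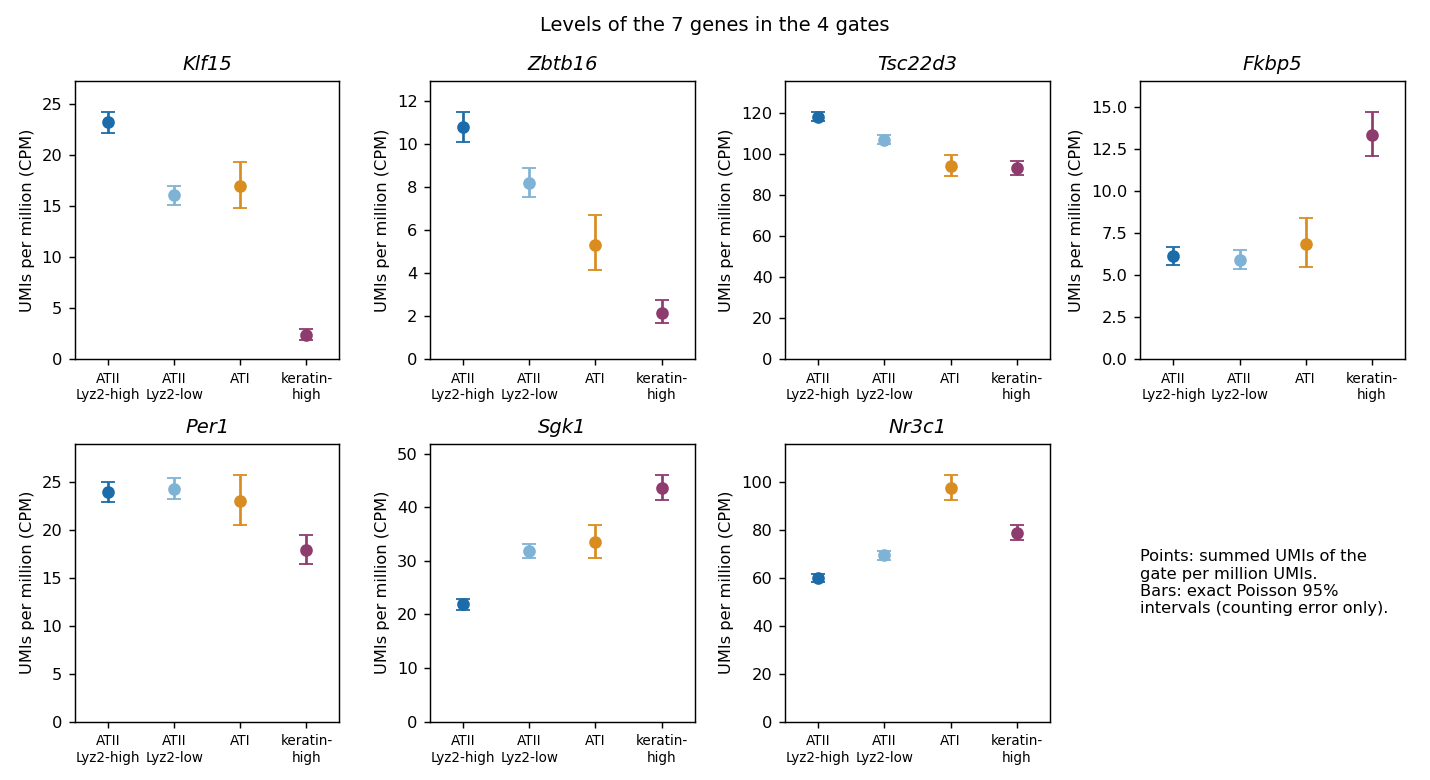
Each panel plots 1 gene, with summed UMIs per 1000000 on the vertical axis (starting at 0) for the 4 gates, and bars that are exact Poisson 95% intervals. Klf15 goes from 23.2 CPM in Lyz2-high ATII cells to 2.35 in keratin-high cells, whereas Fkbp5 goes from 6.11 to 13.3.

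Tsc22d3 encodes GILZ, the glucocorticoid-induced leucine zipper that restrains inflammatory signalling. It stayed within a narrow range, with 118 CPM in Lyz2-high, 107 in Lyz2-low, 94.5 in ATI and 93.3 in keratin-high cells, and the last 2 overlapped. Per1, a repressor arm of the circadian clock, had 23.9, 24.3 and 23.0 CPM in the Lyz2-high, Lyz2-low and ATI gates, all overlapping, and 17.9 (16.4 to 19.5) in keratin-high cells. Neither gene had the deep trough of Klf15 and Zbtb16 in keratin-high cells.

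Fkbp5 encodes an Hsp90 co-chaperone that lowers the receptor's affinity for hormone and is itself a hormone target, so it acts as a feedback brake. Its level was 6.11 CPM (5.60 to 6.64) in Lyz2-high, 5.91 (5.37 to 6.50) in Lyz2-low, 6.82 (5.49 to 8.37) in ATI and 13.3 (12.1 to 14.7) in keratin-high cells. The first 3 overlapped and the keratin-high level stood apart, 2.22 times (1.97 to 2.49) the ATII level. Sgk1, a kinase that raises epithelial sodium transport and cell survival, had 21.9 CPM (20.9 to 22.9) in Lyz2-high, 31.8 (30.5 to 33.1) in Lyz2-low, 33.5 (30.5 to 36.8) in ATI and 43.7 (41.4 to 46.1) in keratin-high cells. Only the Lyz2-low and ATI levels overlapped, and the order from lowest to highest was close to the reverse of that of Klf15.

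Nr3c1, the receptor itself, lies on the minus strand of chromosome 18 (39410545 to 39519421) and was present in every gate, at 59.8 CPM (58.2 to 61.5) in Lyz2-high, 69.3 (67.4 to 71.2) in Lyz2-low, 97.6 (92.3 to 103) in ATI and 78.8 (75.7 to 82.0) in keratin-high cells. No 2 of these intervals overlapped. The gate with the fewest Klf15 transcripts therefore had more receptor transcripts per UMI than either ATII gate. Nr3c2, the related mineralocorticoid receptor, was low, with 3.15 CPM in ATI and 3.91 in keratin-high cells, and with 3.13 and 2.25 in the Stk11-positive and GFP-positive ATII cells defined below. Hsd11b1, which regenerates active glucocorticoid inside cells, had 0.402 CPM in ATII cells and 0.228 in keratin-high cells, and Hsd11b2, which inactivates the hormone, had 9.13 and 13.4.

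A ratio over 2 in either direction served as the call, among genes with at least 10 CPM on either side and leaving out the genes that define the gates. Between keratin-high and ATII cells 2 of the 6 members tested were called, Klf15 lower and Fkbp5 higher, where 19.6% of 8349 genes were called, 14.5% higher and 5.05% lower. Zbtb16 was under 10 CPM on both sides and was not tested, although its ratio was 0.224 (0.172 to 0.286). For Lyz2-high over Lyz2-low cells none of the 6 tested was called, against 1.17% of all genes, with ratios of 1.45 (1.35 to 1.55) for Klf15, 1.32 (1.19 to 1.46) for Zbtb16 and 0.688 (0.647 to 0.731) for Sgk1. For ATI over ATII cells none of the 5 tested was called, against 17% of all genes, and the highest ratio was 1.52 (1.43 to 1.61), for Nr3c1. Klf15 had 0.848 (0.738 to 0.971) there, but a log2 ratio of 0.12 with a Hopx minimum of 30, and 1.09 (0.803 to 1.46) among GFP-positive cells. No count of members called in these 3 comparisons stood clearly above the share of all genes.

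Ratios were not centred on 1: the median gene had a log2 ratio of 0.39 in keratin-high over ATII cells, 0.38 in ATI over ATII cells and -0.19 in Lyz2-high over Lyz2-low cells. Relative to that median, Klf15 stood at -3.47 and Fkbp5 at 0.76 in keratin-high cells, so Fkbp5 was no longer past 2-fold, and Nr3c1 turned to -0.09. Of the genes called in keratin-high over ATII cells, 74.2% were higher, and 48.1% were once ratios were taken relative to the median gene. In ATI over ATII cells that share went from 67.6% to 43.0%, and Sgk1 and Fkbp5 turned to -0.03 and -0.20. In Lyz2-high over Lyz2-low cells it went from 13.3% to 37.8%, and Per1 turned to 0.17.

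Depth differs between gates, with median UMIs of 24514 in Lyz2-high, 18716 in Lyz2-low, 11796.5 in ATI and 23490 in keratin-high cells, so shares of cells with a UMI were read after thinning each cell to 5000 UMIs. Klf15 was then seen in 10.0% (9.03 to 11.1) of 3392 Lyz2-high cells, 7.57% (6.70 to 8.52) of 3380 Lyz2-low cells, 6.90% (5.28 to 8.82) of 841 ATI cells and 1.38% (0.772 to 2.26) of 1090 keratin-high cells. Without thinning the shares were 37.6%, 24.1%, 18.5% and 4.99%, in the same order. Thinning left out 37, 166, 115 and 93 cells that were too shallow.

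Zbtb16 was seen in 4.62% (4.13 to 5.15) of 6772 thinned ATII cells and 1.65% (0.982 to 2.60) of keratin-high cells, Fkbp5 in 2.82% and 6.51%, and Sgk1 in 10.6% and 17.1%. Unthinned, those shares were 15.8% and 4.40% for Zbtb16, 11.9% and 23.8% for Fkbp5, and 30.2% and 45.7% for Sgk1. Cells of other types in the same matrix give a level to read these against. Klf15 was seen in 0 of 76 thinned endothelial cells and 0 of 61 immune cells, which allows up to 3.95% and 4.92%, and in 6.67% of 180 fibroblasts, where median depths were 10662.5, 25586 and 15873 UMIs. The keratin-high Klf15 share lay below these limits, which are upper bounds from few cells, and below the fibroblast share. It is read neither as expression nor as its absence. Fibroblasts had 16.0 CPM of Klf15, so they are no reference without it. Before thinning, the endothelial and immune cells held 1 and 2 Klf15 UMIs. The level of free RNA outside cells was not measured here. Zbtb16 was seen in 13.2% (6.49 to 22.9) of endothelial cells and Sgk1 in 77.0% (64.5 to 86.8) of immune cells. Both intervals lie above the ATII shares.

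Stk11 and GFP transcripts split the cells in another way. Cells with a Stk11 UMI and no GFP UMI (Stk11-positive) numbered 3367, cells with a GFP UMI and no Stk11 UMI (GFP-positive) 3360, 29 had both and 5427 had neither. The split is by detection in a cell and is not the label of a mouse. Stk11-positive cells made up 44.2% of the Lyz2-high, 23.6% of the Lyz2-low, 27.8% of the ATI and 13.9% of the keratin-high gate, and GFP-positive cells 17.3%, 32.4%, 25.3% and 54.3%. Any difference between them holds the differences between the mice they came from, and those cannot be told apart here.

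Within ATII cells, where the groups had similar depth (median 25078 and 25472.5 UMIs), Klf15 stood at 27.1 CPM in the 2353 Stk11-positive cells and 10.7 in the 1742 GFP-positive cells. The ratio was 2.54 (2.29 to 2.81), number 20 from the top among 7689 genes tested. Zbtb16 stood at 13.0 against 5.90 CPM, a ratio of 2.20 (1.92 to 2.53), number 31 from the top. Sgk1 went the other way, with 17.5 against 39.6 CPM and a ratio of 0.441 (0.409 to 0.475). Those 3 of 6 members tested were called, where 2.5% of all genes were, 0.546% higher and 1.95% lower. This contrast is close to the one that led to the choice of Klf15 and Zbtb16, so nothing is read from their count. Marker sums differed as well: in Stk11-positive against GFP-positive ATII cells the 12 ATII markers summed to 62165 against 52723 CPM, the 12 ATI to 2521 against 3486, the 8 airway to 135 against 102, the 10 transitional to 1108 against 2601, the 10 proliferating to 61.6 against 235, the 8 fibroblast to 59.7 against 25.5, the 8 endothelial to 18.1 against 23.0 and the 10 immune to 76.2 against 79.4. Their part in the member differences was not tested.

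The other members differed less between Stk11-positive and GFP-positive ATII cells. Per1 had 24.6 against 19.5 CPM, a ratio of 1.26 (1.16 to 1.37), and Tsc22d3 122 against 108, a ratio of 1.13 (1.09 to 1.17). Nr3c1 had 57.9 against 71.5 CPM, a ratio of 0.810 (0.772 to 0.849). Fkbp5 had 6.07 against 6.42 CPM, with a ratio of 0.944 whose interval (0.810 to 1.10) includes 1. All genes tested had a median of -0.18 on the log2 scale here, and relative to it Fkbp5 turned to 0.10 while the other 6 kept their sides. Among called genes 21.9% were higher in Stk11-positive cells, and 40.4% relative to the median gene.

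Over all 3367 Stk11-positive and 3360 GFP-positive cells, in any gate or none, Klf15 had 25.1 against 8.46 CPM, a ratio of 2.97 (2.73 to 3.23), and Zbtb16 11.7 against 4.61, a ratio of 2.54 (2.27 to 2.86). Between these cells the fibroblast markers summed to 868 against 27.3 CPM, the airway markers to 1238 against 167 and the transitional markers to 2860 against 7516. The proliferating markers summed to 62.4 against 208, the ATII markers to 53511 against 37599 and the ATI markers to 3825 against 5588. The endothelial markers summed to 54.2 against 17.9 and the immune markers to 94.7 against 51.4. The part of all these markers in the differences was not tested. Klf15 and Zbtb16 were the 2 of 6 members called, where 3.95% of 8059 genes were. Both were chosen with a contrast close to this one known, and both reached 10 CPM only among Stk11-positive cells. Nothing is therefore read from this count. Sgk1 was at 0.672 (0.638 to 0.708), nearer to 1 than in ATII cells, and at -1.04 on the log2 scale instead of -0.57 once cells with endothelial, fibroblast or immune markers were left out. Among called genes 34.6% were higher, and 51.9% relative to the median gene, where all genes had a median of -0.22.

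Gate by gate, the Klf15 ratio of Stk11-positive over GFP-positive cells was 2.36 (2.04 to 2.74) in Lyz2-high and 2.46 (2.12 to 2.85) in Lyz2-low ATII cells, 1.86 (1.31 to 2.67) in ATI cells and 0.624 (0.238 to 1.39) in keratin-high cells. The intervals of the ATII and ATI gates overlapped. The keratin-high value rests on 7 against 48 UMIs, and its interval includes 1. Zbtb16 ran from 1.99 (1.63 to 2.45) and 2.29 (1.87 to 2.81) in the ATII gates to 1.66 (0.915 to 3.11) in ATI and 1.05 (0.488 to 2.05) in keratin-high cells. For Zbtb16 only the ATII intervals leave out 1.

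**Figure D2:**
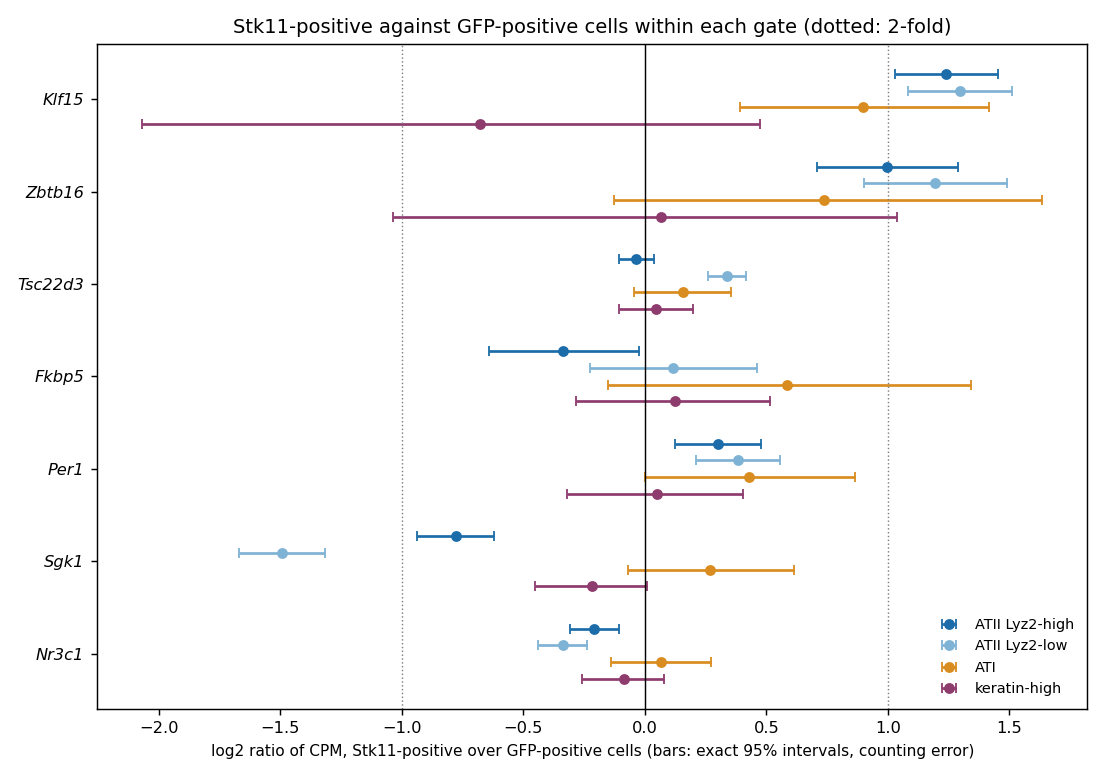
The horizontal axis gives the log2 ratio of UMIs per 1000000 in Stk11-positive over GFP-positive cells, with 1 coloured point per gate and gene and exact 95% intervals of counting error. Klf15 and Zbtb16 lie right of 0 in both ATII gates, Sgk1 lies left of 0 there (ratios 0.583 and 0.355), and all 7 intervals of the keratin-high gate reach or cross 0.

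The Sgk1 ratio was 0.583 (0.522 to 0.651) in Lyz2-high and 0.355 (0.314 to 0.402) in Lyz2-low ATII cells, 1.21 (0.952 to 1.53) in ATI cells and 0.859 (0.731 to 1.01) in keratin-high cells. None of the ATII and ATI intervals overlapped, so Sgk1 was lower in Stk11-positive cells within the ATII gates while the ATI and keratin-high intervals included 1. Members called in these gates numbered 1 of 6 in Lyz2-high (background 1.87%), 3 of 6 in Lyz2-low (2.66%), 0 of 5 in ATI (2.59%) and 0 of 5 in keratin-high cells (4.79%). Klf15 and Zbtb16 were chosen with a contrast close to this one known, and in Lyz2-low cells both reached 10 CPM only among Stk11-positive cells, so nothing is read from these counts.

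Shares of cells were also read after thinning to 5000 UMIs. Klf15 was seen in 11.9% (10.6 to 13.3) of Stk11-positive and 5.09% (4.10 to 6.23) of GFP-positive ATII cells, against 43.3% and 21.9% unthinned. Zbtb16 was seen in 5.92% and 2.95% (2.20 to 3.86), and Sgk1 in 7.04% (6.03 to 8.15) and 15.7% (14.0 to 17.5), against 23.1% and 12.3%, and 25.8% and 44.6%, unthinned. Fkbp5 was seen in 2.92% (2.27 to 3.68) and 3.47% (2.66 to 4.44), against 13.6% and 14.4% unthinned. Thinning is a random draw, and at this depth few Fkbp5 UMIs remain: its log2 ratio was -0.08 as reported and -0.68 in 1 draw, while the expected value over all draws was -0.04.

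Classes of transcript and Lyz2 level go together, so the Lyz2 difference was also read inside each class. Lyz2-high over Lyz2-low, Klf15 had a ratio of 1.18 (1.06 to 1.32) among Stk11-positive and 1.23 (1.03 to 1.47) among GFP-positive ATII cells, both under the 1.45 of all ATII cells. Zbtb16 had 1.07 (0.918 to 1.24) and 1.22 (0.959 to 1.56), intervals that include 1. Sgk1 had 1.14 (1.00 to 1.31) among Stk11-positive cells and 0.697 (0.631 to 0.770) among GFP-positive cells, which do not overlap. None of the 6 members tested was called among Stk11-positive cells (background 0.563%) and none of 5 among GFP-positive cells (1.57%).

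Finer steps of Lyz2 showed the same. Klf15 in all ATII cells stood at 12.5 CPM (11.1 to 14.0) below 10 Lyz2 UMIs per 10000 and at 24.1 (22.6 to 25.7) between 200 and 400. Among Stk11-positive cells its level ran from 19.9 (15.9 to 24.5) in the lowest step to 29.5 (27.2 to 32.0) between 100 and 200, and among GFP-positive cells from 8.90 (7.24 to 10.8) to 12.7 (10.2 to 15.5) between 200 and 400. Every Stk11-positive step up to 400 lay above every GFP-positive step.

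Zbtb16 among Stk11-positive cells was low at both ends, with 6.18 CPM (4.07 to 8.99) in the lowest and 5.28 (2.81 to 9.02) in the highest step, and at least 12.6 in each of the 4 steps between. Among GFP-positive cells it lay between 3.53 and 7.05 CPM in every step, all with overlapping intervals. The highest step held 78 Stk11-positive and 18 GFP-positive cells, with 13 and 2 Zbtb16 UMIs. Zbtb16 therefore differed between the classes in the middle of the Lyz2 range and not detectably at its ends.

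Sgk1 among GFP-positive cells stood at 46.0 CPM (42.1 to 50.1) in the lowest Lyz2 step, 35.4 (31.8 to 39.2) between 100 and 200 and 27.1 (23.5 to 31.2) between 200 and 400, and at 8.84 (2.87 to 20.6) in the 18 cells above that. Among Stk11-positive cells it lay between 14.9 and 22.3 CPM in all 6 steps. Tsc22d3 among GFP-positive cells went from 79.2 CPM (74.1 to 84.5) in the lowest step to 126 (118 to 135) between 200 and 400, and among Stk11-positive cells from 111 (102 to 122) to 116 (111 to 121). The classes therefore differed in Tsc22d3 at low Lyz2 and had overlapping intervals from 50 upwards.

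**Figure D3:**
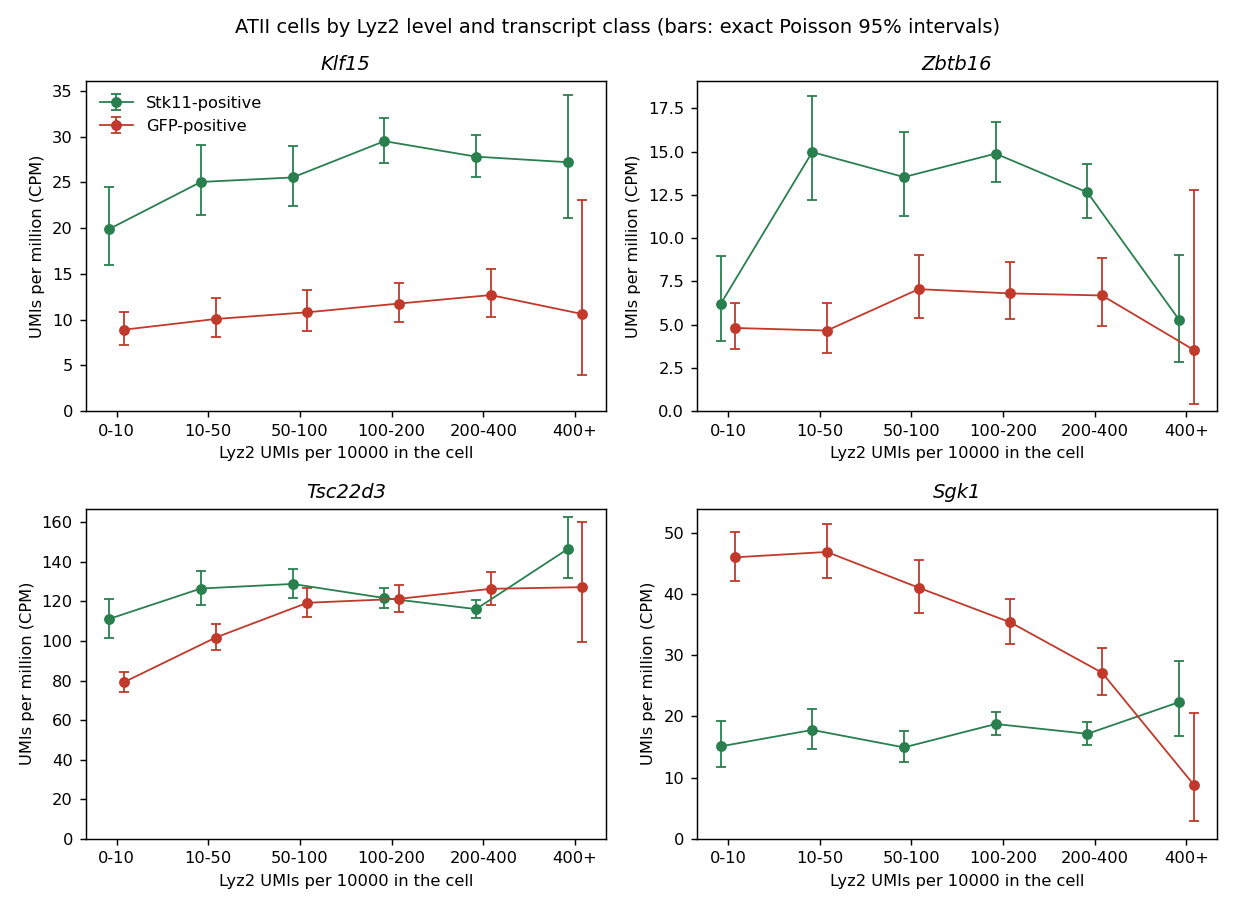
ATII cells are grouped on the horizontal axis by Lyz2 UMIs per 10000, with UMIs per 1000000 of 4 genes on the vertical axes and exact Poisson 95% intervals, in green for Stk11-positive and red for GFP-positive cells. Klf15 is separated by class up to 400 Lyz2 UMIs, and Sgk1 goes from 46.0 to 27.1 CPM with Lyz2 in GFP-positive cells up to 400.

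Around the Lyz2 threshold the members changed little. Just under it, from 80 to 100 UMIs per 10000 (458 cells), Klf15 stood at 21.4 CPM, Zbtb16 at 11.9 and Sgk1 at 22.2. In the next 563 cells just over it, they stood at 21.9, 10.5 and 25.6.

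Pairs of members were then read in the same thinned cells. Zbtb16 was seen in 5.03% (3.42 to 7.11) of 596 ATII cells with Klf15 and 4.58% (4.07 to 5.13) of those without. Tsc22d3 was seen in 44.1% (40.1 to 48.2) of cells with Klf15 and 36.6% (35.4 to 37.8) without, the 1 pair of 21 with intervals apart, and the median ratio over the 21 pairs was 1.00. The highest ratio was that of Zbtb16 with Fkbp5 (1.73), which rests on 15 cells with both. In Lyz2-high cells 3 of 21 pairs were apart, and that ratio was 3.11, from 14 cells with both. At 10000 UMIs, 3 pairs were apart: Klf15 with Zbtb16 (12.4% against 7.02%), Klf15 with Tsc22d3 (65.4% against 57.1%) and Per1 with Sgk1, the last with fewer cells carrying both. Counts in single cells were too sparse to say more about pairs. At 5000 UMIs no ATII cell held more than 3 Klf15 UMIs, and the variance of the count was 1.06 times its mean. For Sgk1 that quotient was 1.56 and for Tsc22d3 1.38.

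Across the 12 groups made by the 4 gates and the classes Stk11-positive, GFP-positive and neither or both, log2 levels of Klf15 and Zbtb16 had a Pearson r of 0.91. Klf15 and Fkbp5 had -0.85, and Zbtb16 and Sgk1 -0.80. The points share 1 matrix and the same gates, so these values are descriptions. Most like Klf15 among 9156 genes were Ldhb (r = 0.98), which encodes a lactate dehydrogenase subunit, Smim1, Use1, Acot2 and 1810010H24Rik (each 0.97). Most like Zbtb16 were Cbr2, a carbonyl reductase of lung epithelium (0.97), N4bp2l1 (0.97), Iah1, Deptor and Kiz (each 0.96). Ldhb ranged from 32.6 to 139 CPM over those groups and Cbr2 from 33.6 to 539, both lowest in keratin-high GFP-positive cells and highest in Lyz2-high Stk11-positive cells.

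Other genes known to answer to glucocorticoid were listed together with the members. Of 38 listed targets, members included, 27 were tested between Stk11-positive and GFP-positive ATII cells. Klf15 and Zbtb16 were over 2-fold higher and Sgk1 over 2-fold lower, where 0.546% of all genes were higher and 1.95% lower, and the remaining 24 lay inside 2-fold. These 3 are the members that the contrast already singled out above. The 27 targets had a median of 0.17 on the log2 scale, with 19 above 0 and 8 below. The median of all 7689 genes was -0.18, so most genes lay below 0. Next to the members stood Sult1a1, a sulfotransferase, with 27.9 against 16.3 CPM (ratio 1.71, 1.57 to 1.87). Klf9, a Krüppel-like factor that also answers to the hormone, had 118 against 77.2 (1.52, 1.46 to 1.59). At the other end, Ddit4, an inhibitor of mTORC1, had 66.0 against 116 CPM (0.570, 0.548 to 0.594).

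**Figure D4:**
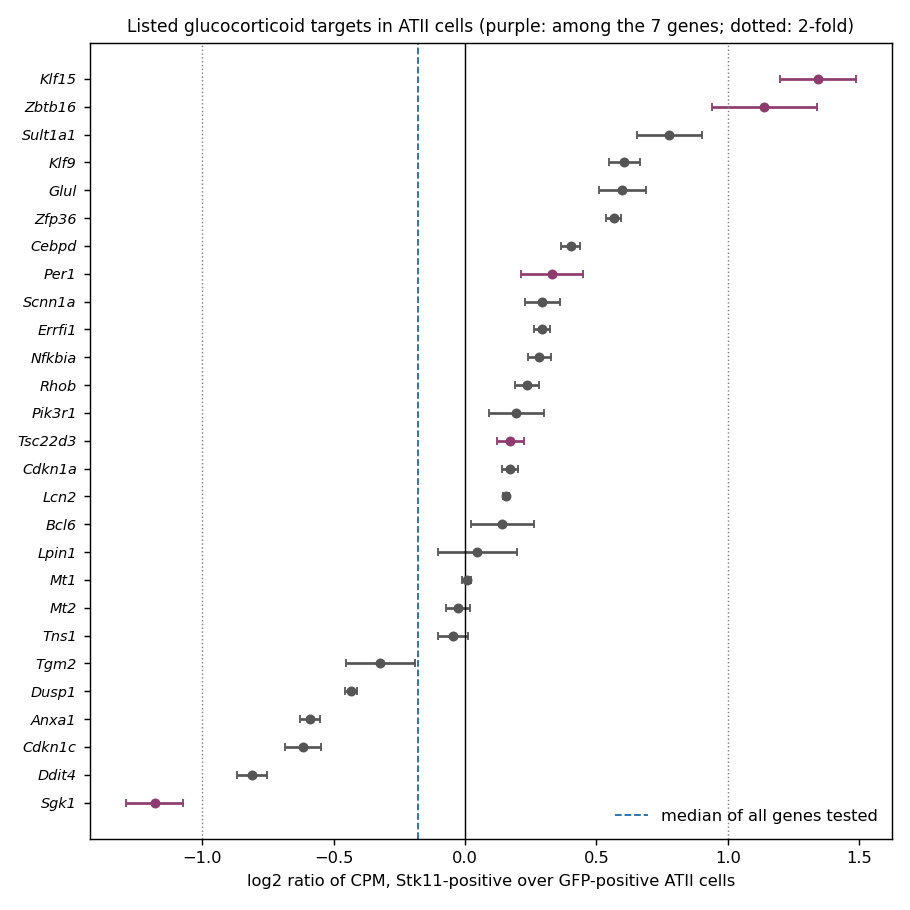
Each line is 1 of the 27 listed glucocorticoid targets tested, with its log2 ratio of UMIs per 1000000 in Stk11-positive over GFP-positive ATII cells and its exact 95% interval. Klf15 (1.34) and Zbtb16 (1.14) lie beyond the upper dotted line at 2-fold and Sgk1 (-1.18) beyond the lower one, and the dashed line marks the median of all genes at -0.18.

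In keratin-high against ATII cells 29 of the listed targets were tested, with 6 over 2-fold higher and 8 over 2-fold lower, where 14.5% and 5.05% of all genes were, and their median was -0.36 beside 0.39 for all genes. Higher were Pdk4, which turns glucose away from mitochondria (40.2 against 2.15 CPM, ratio 18.6), Anxa1, an anti-inflammatory annexin (1542 against 206, ratio 7.49), Angptl4 (43.8 against 6.28, ratio 6.98), Tgm2, Fkbp5 and Cdkn1a. Lower, beside Klf15, were Lcn2, an iron-sequestering acute-phase protein (92.6 against 2135 CPM, ratio 0.0434), Sult1a1 (1.17 against 22.8, ratio 0.0516), Lpin1, Cebpd, Zfp36, Pik3r1 and Glul. In ATI against ATII cells 8 of 28 were over 2-fold higher and 7 over 2-fold lower, where 11.5% and 5.51% of all genes were, and the median was -0.14 beside 0.38.

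Of the receptor and the chaperones that carry it, 3 of 12 tested were over 2-fold higher in keratin-high than in ATII cells (Hsp90ab1, Hspa4 and Stip1), where 14.5% of all genes were, and none was over 2-fold lower. Hsp90ab1 had 3400 against 1413 CPM, a ratio of 2.41 and the highest of the list. Relative to the median gene it stood at 0.88 on the log2 scale, so none of the 12 was then past 2-fold. Fkbp4, the co-chaperone that opposes Fkbp5, had 277 against 261 CPM, a ratio of 1.06 (1.03 to 1.08). Between Stk11-positive and GFP-positive ATII cells 0 of those 12 and 0 of 11 coregulators were past 2-fold, where 2.5% of all genes were. The 2 steroid-handling genes tested there were not either, and Hsd11b2, which inactivates corticosterone, had 7.11 against 13.2 CPM, a ratio of 0.536 (0.474 to 0.607). In Lyz2-low cells it was past 2-fold lower, at 0.496 (0.406 to 0.604), where 2.66% of all genes were past 2-fold in either direction. Relative to the median gene, at -0.15 on the log2 scale there, Hsd11b2 was inside 2-fold. In keratin-high against ATII cells 1 of 13 coregulators, Ncoa4, was higher (12.9 against 4.07 CPM). Of 6 genes of steroid handling, 3 were tested there, and Abcb1b, a drug and steroid exporter, was higher (10.4 against 0.687 CPM) while H6pd, which supplies cofactor to Hsd11b1, was lower (10.8 against 44.5).

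Family relatives of the members were listed too. Of 12 Krüppel-like factors tested, Klf15, chosen for this difference, was the 1 past 2-fold between Stk11-positive and GFP-positive ATII cells, where 2.5% of all genes were, and in keratin-high against ATII cells Klf7 was higher (54.6 against 17.3 CPM) while Klf15 was lower. Among the 4 genes of the TSC22 family, Tsc22d1 had 1004 against 483 CPM in keratin-high against ATII cells, a ratio of 2.08, where Tsc22d3 had 0.823 (0.791 to 0.856). Relative to the median gene Tsc22d1 was inside 2-fold. In keratin-high against ATII cells 14.5% of all genes were over 2-fold higher and 5.05% over 2-fold lower. Sgk2 and Sgk3 stayed under 1 CPM in all 4 gates.

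Clock genes were listed because Per1 belongs to both pathways. Of 15 tested between Stk11-positive and GFP-positive ATII cells, Nr1d1 was past 2-fold higher, where 0.546% of all genes were, with 21.8 against 8.57 CPM and a ratio of 2.54 (2.27 to 2.85). Nr1d1 encodes the clock repressor REV-ERB alpha. Per2 went the other way, with 9.96 against 16.9 CPM (0.588, 0.529 to 0.654), unlike Per1, and Per3 had 0.908 (0.830 to 0.994). For the same ratio within the ATI and keratin-high gates Per2 was past 2-fold lower, at 0.424 (0.292 to 0.606) and 0.467 (0.329 to 0.645), and in keratin-high cells Bhlhe40, a clock repressor, was higher, at 2.06 (1.90 to 2.22). Those were 1 of 15 and 2 of 14 clock genes tested, where 2.59% and 4.79% of all genes were called. Between ATI and ATII cells 2 of 16 clock genes were over 2-fold higher (Tef and Per3) and 3 over 2-fold lower (Npas2, Nfil3 and Bhlhe40), where 11.5% and 5.51% of all genes were. Which mouse a cell came from, and so the hour at which it was collected, cannot be told apart from its class.

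Early-response and heat-shock genes switched on by tissue dissociation were listed because several are also hormone or stress targets. Of 16 tested, Hspa1a and Hspa1b were past 2-fold lower in Stk11-positive ATII cells, with 377 against 936 and 237 against 530 CPM, where 1.95% of all genes were, and none was past 2-fold higher. Hspa1a moved with Sgk1 in this contrast, and its part in the Sgk1 difference was not tested. Of 13 targets of the cyclic AMP factor CREB, which LKB1-dependent kinases restrain through their coactivators, Pde4b was past 2-fold lower (13.4 against 30.0 CPM), where 1.95% of all genes were. Of the 13, 12 lay below 0, with a median of -0.43 on the log2 scale. The median of all genes was -0.18, so most genes lay below 0 too, and no cause was tested. Relative to the median gene Pde4b and Hspa1b were inside 2-fold, while Hspa1a stayed past it. Of 12 genes of amino acid breakdown, the process best known to need Klf15, 7 were tested and none was past 2-fold between Stk11-positive and GFP-positive ATII cells. In keratin-high against ATII cells 2 of those 7 were over 2-fold lower, where 5.05% of all genes were, Gpt (4.66 against 17.2 CPM) and Ivd (18.7 against 37.5).

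Differences between keratin-high and ATII cells were also read within each transcript class, since 54.3% of keratin-high cells were GFP-positive. Among Stk11-positive cells Klf15 had 1.51 against 27.1 CPM, a ratio of 0.0556 (0.0223 to 0.115) from 7 UMIs, and among GFP-positive cells 2.42 against 10.7, a ratio of 0.226 (0.164 to 0.304). Zbtb16 had 0.183 (0.0907 to 0.328) and 0.384 (0.274 to 0.528). Fkbp5 had 2.38 (1.81 to 3.09) and 2.06 (1.74 to 2.44), so its difference was of similar size in both classes. Sgk1 had 2.31 (1.97 to 2.70) among Stk11-positive and 1.18 (1.09 to 1.28) among GFP-positive cells. The low Klf15 and high Fkbp5 levels of keratin-high cells were thus present in both classes, whereas Sgk1 had the larger ratio among Stk11-positive cells. Members called numbered 4 of 7 in the first class (background 28.1%) and 2 of 6 in the second (14.8%). Klf15, Zbtb16 and Fkbp5 reached 10 CPM on at most 1 side of each ratio, and Zbtb16 was not tested in the second class because it reached it on neither, so nothing is read from these counts. The median gene had a log2 ratio of 0.48 in the first class and 0.28 in the second. Relative to it Fkbp5 stood at 0.77 and 0.76 and Sgk1 at 0.73 and -0.04, so neither was past 2-fold in either class and Sgk1 turned in the second.

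In ATI against ATII cells Sgk1 also had the larger ratio among Stk11-positive cells, 2.09 (1.76 to 2.47), and lay below 1 among GFP-positive cells, at 0.765 (0.636 to 0.912). Sgk1 was the 1 member called of 6 tested among Stk11-positive cells (background 17.6%), and 0 of 5 were called among GFP-positive cells (15.9%). For Nr3c1 the ratios were 1.61 (1.45 to 1.78) and 1.24 (1.12 to 1.38). The median gene had a log2 ratio of 0.38 and 0.34 in the 2 classes, and relative to it Nr3c1 stood at 0.31 and -0.02 and Sgk1 at 0.69 and -0.72.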

How the data were processed

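Sorted neoplastic cells of 6 mice were profiled with the 10x 3-prime v3 chemistry. The authors deposited raw counts: each value is a whole number of UMIs for 1 feature in 1 cell, without any scaling. Reads had been mapped to mm10 by Cell Ranger 3.0.2, per the labels. Their annotation release is not given in the sources used here. All libraries were held in 1 matrix of 16017 cells and 266713311 UMIs, with no mouse given per cell, so restored and non-restored mice were not compared, and barcodes shared between libraries were not counted.

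The members, lists and markers were chosen with earlier results of these data known. All 7 members were named, and from each list the genes past 2-fold (at most 3 per direction in full), family relatives, and the 5 genes most alike by Pearson r of log2(CPM + 1). Sult1a1, Klf9 and Ddit4 in the comparison of transcript classes were named after their values were seen.

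CPM are UMIs per 1000000 summed UMIs of a group. Intervals (95%) were exact Poisson for levels, conditional binomial for ratios and Clopper-Pearson for shares. A limit for 0 cells was 3 counts. Doublets were kept, and leaving out the 6% of cells with most UMIs was an alternative. GENCODE M21 matched 30934 of 31055 feature IDs. Endothelial, fibroblast and immune cells were those with UMIs of at least 5 markers of the class. Sums and ratios used numpy 2.4.6 and pandas 2.3.3 in Python 3.11.15, intervals scipy 1.17.1, and plots matplotlib 3.10.9. Ratios and intervals were tested on simulated counts drawn from a Poisson distribution. Those counts hold no further variation between cells or mice, so the test says nothing about how the intervals cover it. A further allele of these mice is not reported here.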

Additional observations from a re-analysis of the deposited data

Results flagged for a closer look

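The 3834 cells left out of every comparison, 2081 with under 500 genes and 1753 with over 20% mitochondrial UMIs, still held transcripts of all 7 genes above the limit that 3 counts allow (0.314 CPM). Tsc22d3 stood at 59.9 CPM in them, Nr3c1 at 54.0, Per1 at 49.4, Sgk1 at 18.2, Klf15 at 10.3, Zbtb16 at 9.53 and Fkbp5 at 5.34. Per1 was therefore higher there than in any of the 4 gates, and Tsc22d3 (55.1 to 65.0) lower than in any. The intervals of Fkbp5 (3.98 to 7.02), Zbtb16 (7.67 to 11.7), Sgk1 (15.6 to 21.1) and Nr3c1 (49.5 to 58.9) overlapped that of at least 1 gate. These cells had a median of 1915 UMIs and 42.6% mitochondrial UMIs, which count in the total and so lower the CPM of every other gene.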

How the results depend on the processing

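Over 35 member log2 ratios, 623 alternative values were computed, of which 601 kept their sign (among the 22 that did not was Klf15 in ATI over ATII cells, which went from -0.24 to 0.12 with a Hopx minimum of 30), and 137 of 140 values of the 8 ratios past 2-fold stayed past it. The exceptions were Fkbp5 in keratin-high over ATII cells, at 0.76 relative to the median gene and 0.83 with the 10 most abundant genes and mitochondrial genes left out of the total, and Zbtb16 in Stk11-positive over GFP-positive ATII cells, at 0.93 with classes set after thinning. The cause was not tested. Alternatives with a minimum of 1 CPM, with no minimum or with a ratio over 1.5 change only which genes are called. They leave every log2 ratio as reported, so they could not change a sign or cross 2-fold, yet they are among the values counted here. Thinning to 5000 UMIs is a random draw: in Stk11-positive over GFP-positive ATII cells 1 draw gave Fkbp5 -0.68, Zbtb16 1.42 and Sgk1 -1.50, and the expected value over all draws, an alternative chosen after seeing the data, gave -0.04, 1.16 and -1.33. Members past 2-fold in keratin-high over ATII cells thus numbered 1 instead of 2 relative to the median gene. In ATI over ATII cells they numbered 1 instead of 0 with the 10 most abundant genes left out, with a ratio over 1.5 as the call, and in cells of 15000 to 30000 UMIs, a band chosen after seeing the data, where 1324 of 8888, 3314 of 8289 and 1412 of 8243 genes were called. Counts over all genes moved with the construction of the call. With a minimum of 1 CPM, with no minimum and with a ratio over 1.5, in that order, they were 454, 2255 and 365 for the Lyz2 comparison (90 as reported), 2580, 4466 and 3314 for ATI (1412), 2811, 4945 and 3607 for keratin-high (1634), 703, 2327 and 550 for Stk11-positive over GFP-positive ATII cells (192), and 1253, 3528 and 934 over all cells (318). The Lyz2 count was 49 with Sftpc of at least 1000 and 58 with the Lyz2 split at 200. No paired analysis was possible because the matrix holds no mouse or replicate number for a cell. Stk11-positive keratin-high cells held 7 Klf15 UMIs, which limits what can be said of Klf15 there.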
